A study of Homo sapiens with 3 samples.

Results

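The nuclear-encoded subunits of respiratory complexes I to V were followed through 3 libraries of H660 cells. Members were chosen by gene symbol. The symbol patterns NDUFA, NDUFB, NDUFC, NDUFS and NDUFV, SDHA to SDHD, UQCR, the ubiquitous COX subunit symbols and ATP5F1, ATP5M and ATP5P matched 134 of the 58735 genes in the table. Of these, 76 were subunit genes, 56 were pseudogenes and 2 were the gene copies UQCRHL and ATP5MGL, and only the 76 subunit genes were taken as members. Complex I had 36 of them, complex II 4, complex III 8, complex IV 11 and complex V 17. NDUFA4 was placed in complex IV, where its protein resides despite its name.

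H660 is an established human cell line of neuroendocrine prostate cancer (NEPC), and the libraries were made from parental cells. The study asked how JG231, an allosteric inhibitor of the chaperone HSP70, alters gene expression in NEPC cells. The cells were treated with vehicle (DMSO), with 2.5 µM JG231 or with 5 µM JG231 for 24 h. Each condition was 1 library, so no difference below has a replicate check, and every count compares libraries.

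The respiratory complexes sit in the inner mitochondrial membrane. Complex I accepts electrons from NADH and complex II, which is also the succinate dehydrogenase of the citric acid cycle, accepts them from succinate. Complex III passes them on to cytochrome c and complex IV to oxygen, and the proton gradient built by complexes I, III and IV drives ATP synthase, complex V. Most subunits are encoded in the nucleus, while a few of complexes I, III, IV and V are encoded by the mitochondrial genome, and complex II is wholly nuclear-encoded. NRF1, the ETS factor GABP and YY1 are textbook regulators of the nuclear genes.

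Stretches upstream of the transcription start are shown for 1 member of each complex, so that the letters searched in the promoters can be seen beside members with different changes. In each complex this was the member with the highest change at 5 µM among those with a mean of at least 5 FPKM and a searched motif within an exon-free stretch of at least 100 bases. The sequences are from RefSeq on build GRCh38.p14, written 5′ to 3′ on the strand of the gene, with the motif in capitals. The stretch of SDHB is chr1:17054033-17054282 on the minus strand and carries the NRF1 letters GCATGCGC from position −200 relative to the start. The stretch of COX8A is chr11:63974370-63974619 on the plus strand and carries the ETS letters CCGGAAGT in reverse orientation from position −19. The stretch of NDUFB4 is chr3:120596086-120596327 on the plus strand, where the NRF1 letters on both strands overlap. The stretches of UQCR11, chr19:1605474-1605712 on the minus strand, and of ATP5PD, chr17:75046986-75047183 on the minus strand, carry the ETS letters from positions −117 and −102. None of the 5 stretches overlaps an annotated exon.
SDHB: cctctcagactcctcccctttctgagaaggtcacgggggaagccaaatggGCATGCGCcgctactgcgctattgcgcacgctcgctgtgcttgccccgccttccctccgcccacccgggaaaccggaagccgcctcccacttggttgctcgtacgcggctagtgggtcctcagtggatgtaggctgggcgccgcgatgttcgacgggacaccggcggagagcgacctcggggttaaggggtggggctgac
COX8A: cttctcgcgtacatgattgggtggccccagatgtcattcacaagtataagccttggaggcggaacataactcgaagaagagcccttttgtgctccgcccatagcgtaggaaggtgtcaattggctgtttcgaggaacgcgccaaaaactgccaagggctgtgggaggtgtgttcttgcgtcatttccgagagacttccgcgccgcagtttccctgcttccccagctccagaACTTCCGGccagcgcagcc
NDUFB4: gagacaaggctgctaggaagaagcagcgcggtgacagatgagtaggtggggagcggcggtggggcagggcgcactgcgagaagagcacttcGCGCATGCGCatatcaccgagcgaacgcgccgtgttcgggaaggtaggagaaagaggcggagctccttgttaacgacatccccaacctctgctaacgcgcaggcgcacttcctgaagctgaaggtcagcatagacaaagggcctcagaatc
UQCR11: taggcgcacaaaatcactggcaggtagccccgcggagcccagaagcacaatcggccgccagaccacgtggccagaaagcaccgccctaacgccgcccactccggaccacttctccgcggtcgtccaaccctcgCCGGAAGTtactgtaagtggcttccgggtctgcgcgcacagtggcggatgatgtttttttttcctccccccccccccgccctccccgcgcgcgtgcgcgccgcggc
ATP5PD: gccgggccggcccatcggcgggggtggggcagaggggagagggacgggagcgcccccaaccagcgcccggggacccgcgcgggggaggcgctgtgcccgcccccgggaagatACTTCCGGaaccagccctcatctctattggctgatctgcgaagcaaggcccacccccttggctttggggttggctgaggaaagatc

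SDHB and COX8A were among the members that were higher by over 1 log2 unit at 5 µM, NDUFB4 lay at the threshold, and UQCR11 and ATP5PD were lower. Promoters from 250 bases before to 50 bases after the start were found for 63 of the 76 members. Missing entries included ATP5F1B, ATP5F1D, ATP5MC3, ATP5MF, COX6C, NDUFA4, NDUFB5, NDUFB9, NDUFC2, NDUFS5, SDHC and UQCRB. The NRF1 letters GCATGCGC were present on either strand in 13 of the 63, or 20.6%, against 3.05% of all 35116 promoters. The ETS letters CCGGAAGT were present in 10 members, or 15.9%, against 4.14%, and the YY1 letters AAGATGGC in 11, or 17.5%, against 2.89%. At least 1 of these motifs was found in 28 members, or 44.4%, against 9.36% of all promoters and 11.7% of those of protein-coding genes. The median change at 5 µM was 0.42 in the 28 members with a motif and 0.51 in the 35 without. By motif it was 0.25 with the NRF1 letters against 0.51 without, 0.33 with the ETS letters against 0.51 without, and 0.73 with the YY1 letters against 0.44 without. A match is a description of the letters in this window, and its absence says nothing of the factor.

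The libraries held about 16100000 fragments for DMSO, 20400000 at 2.5 µM and 24100000 at 5 µM, as recovered from the steps of the deposited FPKM values. The genes of the mitochondrial genome took 39.8% of the FPKM sum in DMSO, 24.1% at 2.5 µM and 28.8% at 5 µM. The sample records call the cells prostatic adenocarcinoma. The 6 neuroendocrine markers were detected in every library, with CHGA at 45.99, 15.05 and 12.7 FPKM in DMSO, 2.5 µM and 5 µM, and all 6 were lower at 5 µM than in DMSO. At 2.5 µM 5 were lower, and INSM1, at 13.4, 16.3 and 10.5 FPKM, was higher. Of the 4 luminal markers, KLK2 was listed at 0 and none exceeded 0.134 FPKM in any library. The leukocyte marker PTPRC was listed at 0, and VIM, a stromal marker, was at 2.52, 8.43 and 6.38 FPKM. Of the collagen genes among the stromal markers, COL1A1 was at 0.823, 0.745 and 1.27 FPKM and COL1A2 did not exceed 0.066. The part of these markers in the members' changes was not tested. In bulk RNA, fewer cells of a type and less RNA per cell cannot be told apart.

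All 76 subunits were expressed, with a mean of at least 1 FPKM, and 75 exceeded 1 FPKM in every library. The exception was NDUFA7, at 0.264 FPKM in DMSO. The most abundant transcript was ATP5F1B, the catalytic beta subunit of ATP synthase, at 400 FPKM in DMSO, 455 at 2.5 µM and 506 at 5 µM. Complex IV stood highest, with a median of 76.1 FPKM over its 11 subunits in DMSO, followed by complex III with 30.7, complex V with 25.7, complex II with 20.8 and complex I with 16.1. Levels within complex I ranged from NDUFA7 to NDUFS5, an accessory subunit, at 206 FPKM, whereas complex IV ranged only from 30.4 FPKM for NDUFA4 to 254 for COX6B1.

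**Figure D1:**
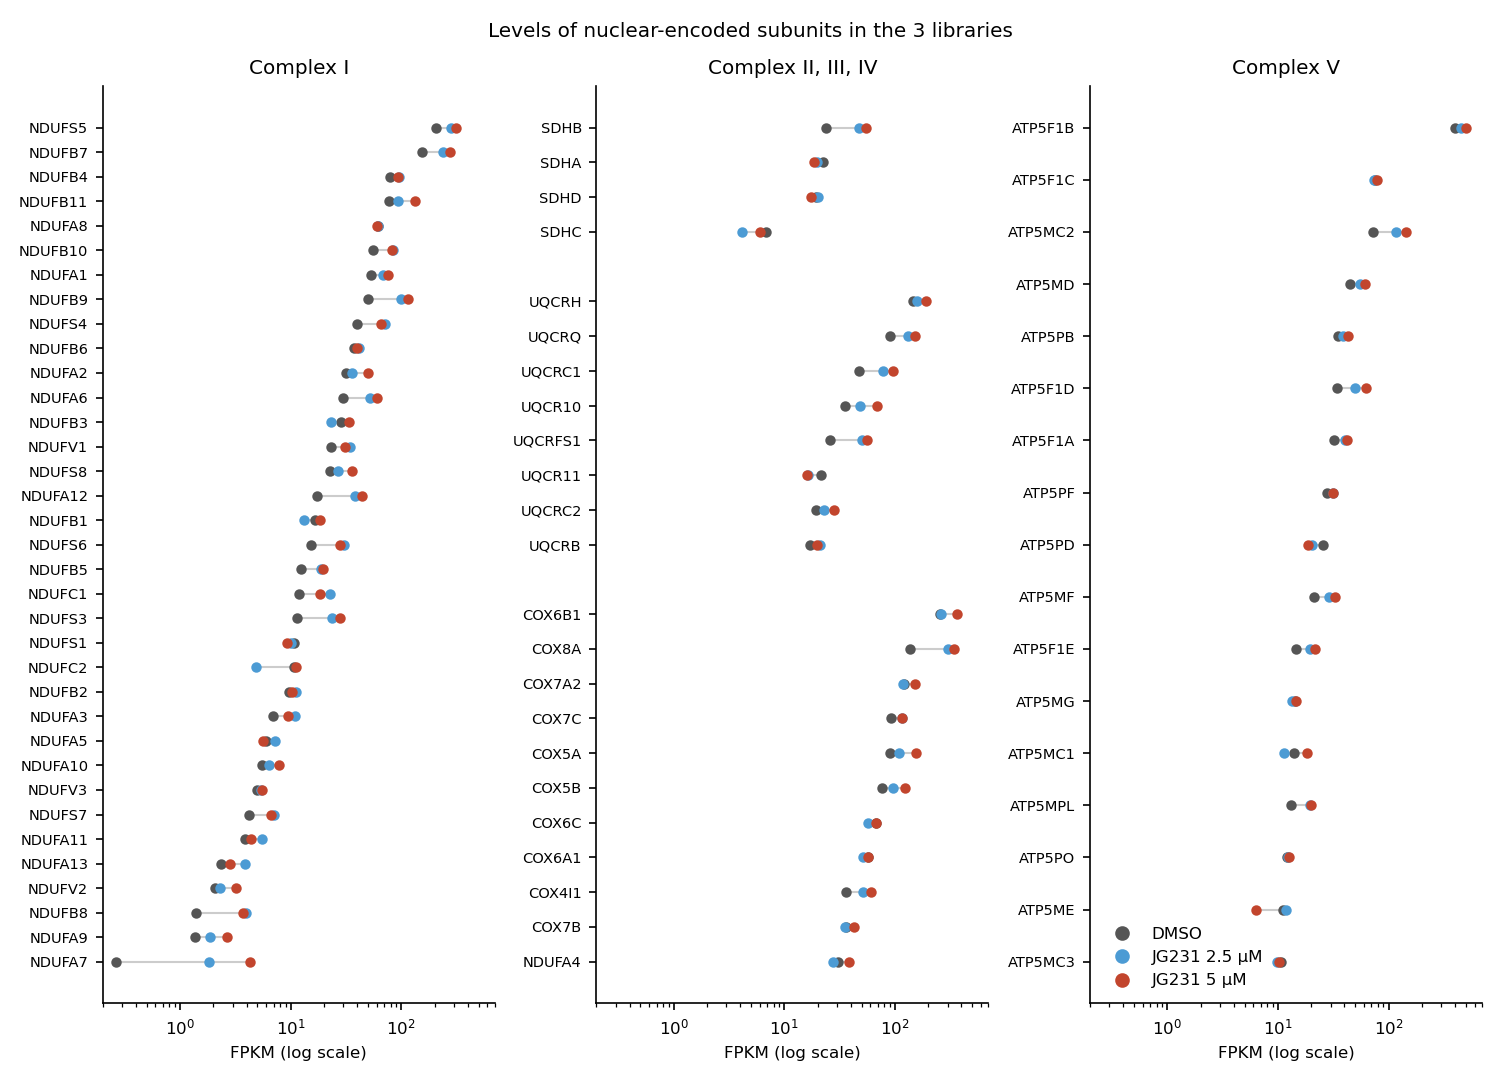
FPKM on a log scale (horizontal axis) of 75 of the subunits in the DMSO, 2.5 µM and 5 µM libraries (colors), 1 point per library, with rows ordered within each complex by the DMSO level. ATP5F1B reached 506 FPKM at 5 µM, and NDUFA7 stood at 0.264 FPKM in DMSO.

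The order of levels was largely the same in the 3 libraries. Spearman's rho over the 76 members, which share libraries, was 0.97 between DMSO and either dose. The summed level of the members was 3454 FPKM in DMSO, 4421 at 2.5 µM and 5107 at 5 µM. As a share of each library's FPKM sum this was 1.05%, 1.39% and 1.42%. When genes of the mitochondrial genome and small RNA genes were left out of the sum, the share was 1.77%, 1.85% and 2.01%, so the step at 2.5 µM was smaller on that scale.

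Changes are log2 differences of FPKM with a pseudocount of 0.1, and a gene was counted as higher or lower when it differed by over 0.25 with an FPKM over 1 in either library. At 5 µM, 51 of the 76 subunits were higher than in DMSO and 4 were lower, where 36.5% and 45.1% of the 15765 genes with an FPKM over 1 in either library were called higher and lower. At 2.5 µM, 42 were higher and 7 lower, where the shares were 36.4% and 43.4% of 15746 genes. Shares of all genes below are over the genes that passed this filter. The members' share of higher calls, 67.1% at 5 µM and 55.3% at 2.5 µM, thus lay above that of all genes. By over 1 log2 unit, 9 members were higher and 0 lower at 5 µM, against 14.7% and 24.3% of all genes, and 5 were higher and 1 lower at 2.5 µM, against 12.9% and 21.7%. At that size the members' shares of higher calls, 11.8% and 6.58%, lay below those of all genes. Their median change was 0.48 at 5 µM and 0.28 at 2.5 µM, where the median over the 13785 genes with a mean of at least 1 FPKM was −0.01 and 0.00.

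The members are short and abundant transcripts, and genes of those kinds also stood higher. Their canonical transcripts had a median of 760.5 bases, against 3297.5 for protein-coding genes, and 54 of the 76 were shorter than 1500 bases. The other 1504 protein-coding genes with canonical transcripts under 1500 bases had a median change of 0.57 at 5 µM and 0.42 at 2.5 µM, above the members' medians. The other 4423 protein-coding genes with a mean of at least 10 FPKM had medians of 0.34 and 0.30. Among the members themselves, Spearman's rho of change with length was −0.11 at 5 µM and −0.10 at 2.5 µM. The part of transcript length in the members' changes was not tested.

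Scaling mattered for direction. On a common FPKM sum 44 members were higher and 7 lower at 5 µM, where 31.5% and 50% of all genes were called, and 46 were higher and 6 lower at 2.5 µM, where the shares were 38.5% and 41.5%. Rescaling each library to a common FPKM sum without mitochondrial genome and small RNA genes shifted the median of all genes by −0.38 at 5 µM and −0.28 at 2.5 µM. On that scale the members' median was 0.10 at 5 µM and −0.00574 at 2.5 µM, still above the shifted median of all genes, with 28 members higher and 18 lower at 5 µM and 25 and 19 at 2.5 µM. This was 36.8% higher and 23.7% lower at 5 µM, where 22.9% and 60.1% of all genes were called, and 32.9% and 25% at 2.5 µM, where the shares of all genes were 24.6% and 56.2%. The scale shifts every gene alike, by about −0.38 at 5 µM and −0.29 at 2.5 µM, so that members less than about 0.63 higher at 5 µM or 0.54 higher at 2.5 µM were not called higher on it. Higher calls then made up 60.9% of the calls at 5 µM in place of 92.7%, and 56.8% at 2.5 µM in place of 85.7%. With the trend on transcript length removed, 25 members were higher and 25 lower at 5 µM, 32.9% each, against 34% and 45.4% of all genes. At 2.5 µM 28 were higher and 20 lower, 36.8% and 26.3% against 34.9% and 43.7%, so that higher calls were 58.3% of the calls. On that setting the shares of higher calls were thus close to those of all genes, whose median was −0.056 at 5 µM and −0.016 at 2.5 µM, and the shares of lower calls were below them. Single members moved as well under that setting, and at 5 µM SDHB changed by 0.67, COX8A by 0.57, NDUFA12 by 0.65, NDUFB8 by 0.68, NDUFS3 by 0.69, UQCRC1 by 0.64, UQCR10 by 0.40, COX4I1 by 0.12, ATP5F1D by 0.34 and ATP5MC2 by 0.32, each over 1.5 times smaller than the values below. As a scale for single values, the spread of the difference between the 2 JG231 libraries over the 500 genes nearest in level is used below. It was 0.19 to 0.74 among the members, with a median of 0.25, and it is not a replicate error. The changes of 22 members at 5 µM and of 28 at 2.5 µM lay within their own spread.

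**Figure D2:**
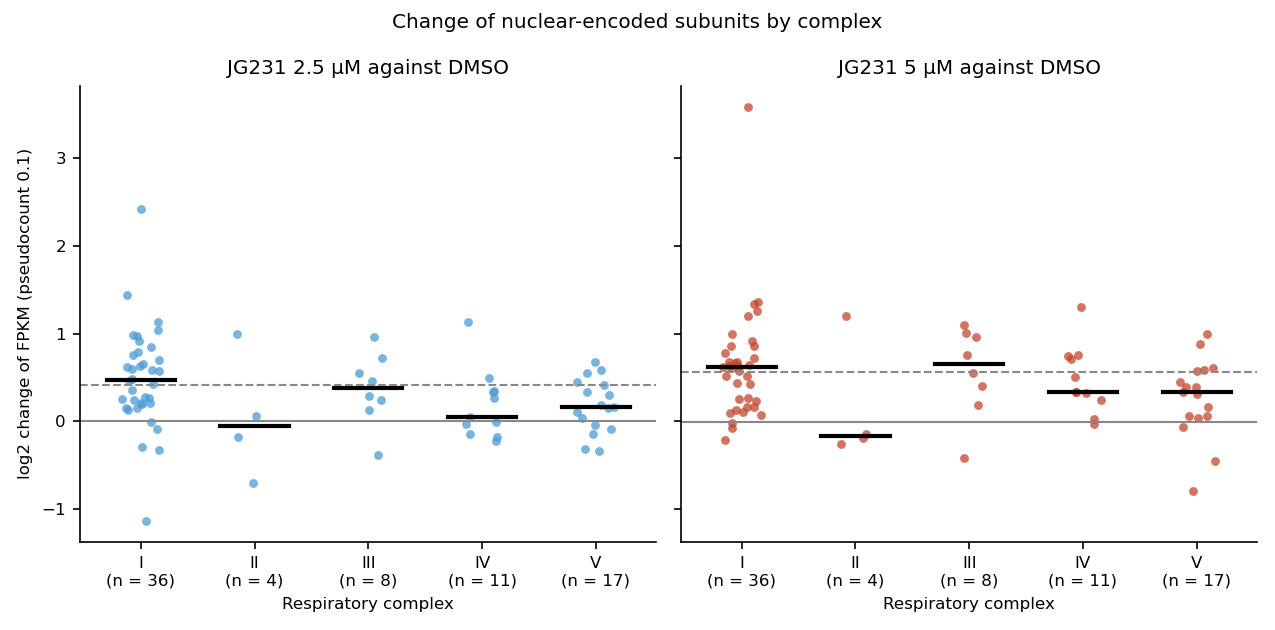
log2 change of FPKM (pseudocount 0.1) of each subunit against DMSO, by complex, at 2.5 µM (left) and 5 µM (right). Points are subunits, black bars are medians, the solid line is the median of 13785 genes and the dashed line that of 1504 short protein-coding genes. At 5 µM the medians of complexes I and III, 0.62 and 0.66, lay above the dashed line, and that of complex II, −0.17, lay below the solid line.

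The complexes differed in level of change. At 5 µM the median was 0.66 for complex III, 0.62 for complex I, 0.34 for complex V, 0.33 for complex IV and −0.17 for complex II. At 2.5 µM it was 0.47 for complex I, 0.37 for complex III, 0.16 for complex V, 0.04 for complex IV and −0.05 for complex II. Complexes I and III differed by less than 0.1 at both doses and changed places in the order. Complex I exceeded complex IV by 0.29 at 5 µM and 0.42 at 2.5 µM, and complex V by 0.28 and 0.31. With the length trend removed, the medians of complexes I to V at 5 µM were 0.048, −0.48, 0.39, 0.057 and −0.21, so that complex I lay 0.34 below complex III and within 0.01 of complex IV. On the scale without mitochondrial and small RNA genes, the medians of complexes IV and V at 5 µM were −0.047 and −0.042, each above the all-gene shift of −0.38. Counts on that scale at 5 µM were 17 higher and 6 lower in complex I, 4 and 1 in complex III, 4 and 2 in complex IV and 2 and 6 in complex V. At 2.5 µM they were 17 and 5, 3 and 1, 1 and 5, and 3 and 6. Of all genes, 22.9% were called higher and 60.1% lower at 5 µM on that scale, and 24.6% and 56.2% at 2.5 µM.

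In complex I, 26 of 36 subunits, or 72.2%, were higher and 0 were lower at 5 µM. At 2.5 µM 24, or 66.7%, were higher and 3 lower. Of all genes, 36.5% were called higher and 45.1% lower at 5 µM, and 36.4% and 43.4% at 2.5 µM. With the length trend removed 12 were higher and 9 lower at 5 µM, 33.3% and 25% against 34% and 45.4% of all genes. At 2.5 µM this setting gave 19 and 5, 52.8% and 13.9% against 34.9% and 43.7%. The 7 nuclear-encoded core subunits include those that carry the flavin and the iron-sulfur clusters, and 6 of them were higher at 5 µM and 4 at 2.5 µM. After removal of the length trend these counts were 3 and 5, and at 5 µM NDUFS7, NDUFS8, NDUFV1 and NDUFV2 changed by 0.024, 0.047, 0.048 and 0.039. NDUFS3, a core subunit of the matrix arm, was at 11.5, 23.7 and 27.7 FPKM in DMSO, 2.5 µM and 5 µM. It was 1.26 higher at 5 µM, with a counting interval of 1.15 to 1.38, and 1.04 higher at 2.5 µM. Both doses stood well above DMSO.

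NDUFS8, which carries a pair of iron-sulfur clusters, was at 22.6, 26.8 and 36.2 FPKM, and NDUFS7, the subunit of the last cluster before ubiquinone, at 4.19, 7.13 and 6.62. NDUFS8 stood higher at 5 µM than at 2.5 µM, and the doses of NDUFS7 were close. NDUFV1, which binds the flavin and NADH, was at 23.2, 34.7 and 31.3 FPKM, and NDUFV2, the iron-sulfur partner of NDUFV1, at 2.06, 2.30 and 3.23. NDUFS1, the largest subunit of complex I, was at 10.7, 10.1 and 9.25 FPKM. At 5 µM it was the only core subunit not called higher, and its change of −0.21 lay within its spread of 0.32. With the length trend removed it changed by 0.41 at 5 µM and 0.30 at 2.5 µM. On a common FPKM sum it changed by −0.34 at 5 µM and −0.040 at 2.5 µM. Without mitochondrial and small RNA genes it changed by −0.59 and −0.38. At 2.5 µM NDUFS8 and NDUFV2 were not called higher either.

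The 29 accessory subunits, which surround the core without carrying redox centers, had a median of 0.58 at 5 µM and 0.45 at 2.5 µM, against 0.63 and 0.58 for the core. Of the 29, 20 were higher at each dose, where 36.5% of all genes were called higher at 5 µM and 36.4% at 2.5 µM. With the length trend removed, 12 subunits of the whole complex were higher at 5 µM, of which 3 were core subunits. NDUFA7 had the greatest change of all members, with 0.264, 1.84 and 4.26 FPKM, a change of 3.58 at 5 µM. It rested on about 6 fragments in DMSO, and its counting interval ran from 2.84 to 5.46. With a pseudocount of 1 the change was 2.06.

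NDUFA12 was at 17.3, 38.2 and 44.5 FPKM, a change of 1.36 at 5 µM and 1.14 at 2.5 µM, and rested on 2292 fragments in DMSO. NDUFB8 was at 1.40, 3.95 and 3.68 FPKM, with 45 fragments in DMSO, and NDUFB9 at 50.4, 99.7 and 116. Both doses stood above DMSO for all of these accessory subunits. NDUFA5, an accessory subunit of the matrix arm, was at 5.93, 7.21 and 5.61 FPKM, with a change of −0.08 at 5 µM and 0.28 at 2.5 µM, both within its spread of 0.39.

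A few accessory subunits of the membrane arm were lower at 2.5 µM only. NDUFC2 was at 10.7, 4.81 and 11.2 FPKM, so that it was 1.14 lower at 2.5 µM and within 0.07 of DMSO at 5 µM. NDUFB1, at 16.7, 13.3 and 18.3 FPKM, and NDUFB3, at 28.6, 23.3 and 33.6, had the same order of libraries with smaller differences. In all of these the 2.5 µM library was the lowest and the 5 µM library the highest. By symbol group, the median at 5 µM was 0.66 for the 8 NDUFS genes, 0.58 for the 11 NDUFB genes, 0.51 for the 12 NDUFA genes of complex I, 0.43 for the 3 NDUFV genes and 0.35 for the 2 NDUFC genes.

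Complex II was divided. SDHB, the iron-sulfur subunit, was at 23.7, 47.3 and 54.7 FPKM, which is 1.21 higher at 5 µM, with a counting interval of 1.10 to 1.32, and 0.997 higher at 2.5 µM. SDHA, the flavoprotein that oxidizes succinate, was at 22.4, 19.8 and 18.6 FPKM. The ratio of SDHB to SDHA was 1.06 in DMSO, 2.39 at 2.5 µM and 2.94 at 5 µM.

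The membrane anchors SDHC and SDHD did not move with SDHB. SDHC was at 6.86, 4.17 and 5.999 FPKM, 0.71 lower at 2.5 µM and −0.19 at 5 µM, which lay within its spread of 0.38. SDHD was at 19.2, 20.1 and 17.4 FPKM and within its spread of 0.28 at both doses on the deposited scale. With the length trend removed SDHC and SDHD changed by −0.64 and −0.58 at 5 µM, and without mitochondrial and small RNA genes SDHD changed by −0.52 and SDHA by −0.64. On the deposited scale SDHA changed by −0.26 at 5 µM, past the threshold but within its spread of 0.27. As the ratio of 2 genes of the same library, the SDHB to SDHA contrast does not depend on the scaling of libraries. It does depend on the length trend, without which SDHB changed by 0.67 and SDHA by −0.39 at 5 µM, a narrower contrast. Of the exon bases of SDHA, 21.7% lie in exons of another gene on the same strand.

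In complex III, 6 of 8 subunits were higher and 1 lower at 5 µM, and 5 higher and 1 lower at 2.5 µM. The shares of higher calls were 75% and 62.5%, where 36.5% and 36.4% of all genes were called higher. With the length trend removed 6 were higher and 2 lower at 5 µM, and 4 and 2 at 2.5 µM. Of all genes, 34% and 34.9% were called higher on that setting. UQCRFS1, the Rieske iron-sulfur protein, was at 26.2, 50.9 and 56.1 FPKM, a change of 1.10 at 5 µM and 0.96 at 2.5 µM. UQCRC1 and UQCRC2 are the core proteins of the matrix side, and UQCRC1 was at 47.8, 78.6 and 96.1 FPKM. UQCRC2 was at 19.2, 22.8 and 28.3 FPKM. Each of these genes stood in the order DMSO, 2.5 µM, 5 µM, and UQCRC1 was higher by 1.01 at 5 µM where UQCRC2 was higher by 0.56. UQCRC2 changed by 0.18 without mitochondrial and small RNA genes, under the threshold, and by 0.26 with the length trend removed.

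UQCR10, a small membrane subunit, was at 35.3, 48.5 and 68.8 FPKM, a change of 0.96 at 5 µM. UQCR11, another small subunit, was at 21.4, 16.4 and 16.1 FPKM, lower by 0.41 at 5 µM and 0.38 at 2.5 µM. It was the only subunit of complex III called lower, and both doses lay under DMSO by more than its spread of 0.29. Its changes were −0.79 and −0.67 without mitochondrial and small RNA genes, and −0.86 and −0.67 without the length trend. UQCRB, annotated as the ubiquinone-binding protein of the complex, was at 17.2, 21.1 and 19.6 FPKM, a change of 0.18 at 5 µM. This change was 0.67 without the length trend and −0.19 without mitochondrial and small RNA genes.

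In complex IV, 8 of 11 subunits were higher and 0 lower at 5 µM. At 2.5 µM 5 were higher, 0 were lower and 6 lay within 0.25 of DMSO. The shares of higher calls were 72.7% and 45.5%, where 36.5% and 36.4% of all genes were called higher. With the length trend removed 2 were higher and 4 lower at 5 µM, 18.2% and 36.4% against 34% and 45.4% of all genes. At 2.5 µM that setting gave 1 and 5, 9.09% and 45.5% against 34.9% and 43.7%. COX8A, a small membrane subunit, was at 137, 301 and 339 FPKM, with a change of 1.31 at 5 µM and 1.14 at 2.5 µM. COX4I1, the largest nuclear-encoded subunit, was at 36.3, 51.4 and 60.9 FPKM. Both were high already at 2.5 µM on the deposited scale. COX4I1 changed there by 0.50, but by 0.21 without mitochondrial and small RNA genes and by 0.097 with the length trend removed, under the threshold.

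COX5A, a matrix-side subunit, was at 91.0, 110 and 154 FPKM and COX5B, which binds zinc, at 76.1, 95.7 and 124. Both followed the order of doses on the deposited scale, and with the length trend removed they changed by 0.27 and 0.058 at 5 µM. COX6B1, a subunit on the intermembrane side, was at 254, 262 and 362 FPKM, and COX7A2 at 122, 120 and 153. These 2 were nearly equal in DMSO and at 2.5 µM and higher at 5 µM. COX6A1, at 57.7, 51.1 and 56.7 FPKM, and COX6C, at 67.1, 57.4 and 68.2, were within 0.03 of DMSO at 5 µM on the deposited scale. Without mitochondrial and small RNA genes they changed by −0.41 and −0.36, and with the length trend removed by −0.74 and −0.61.

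**Figure D3:**
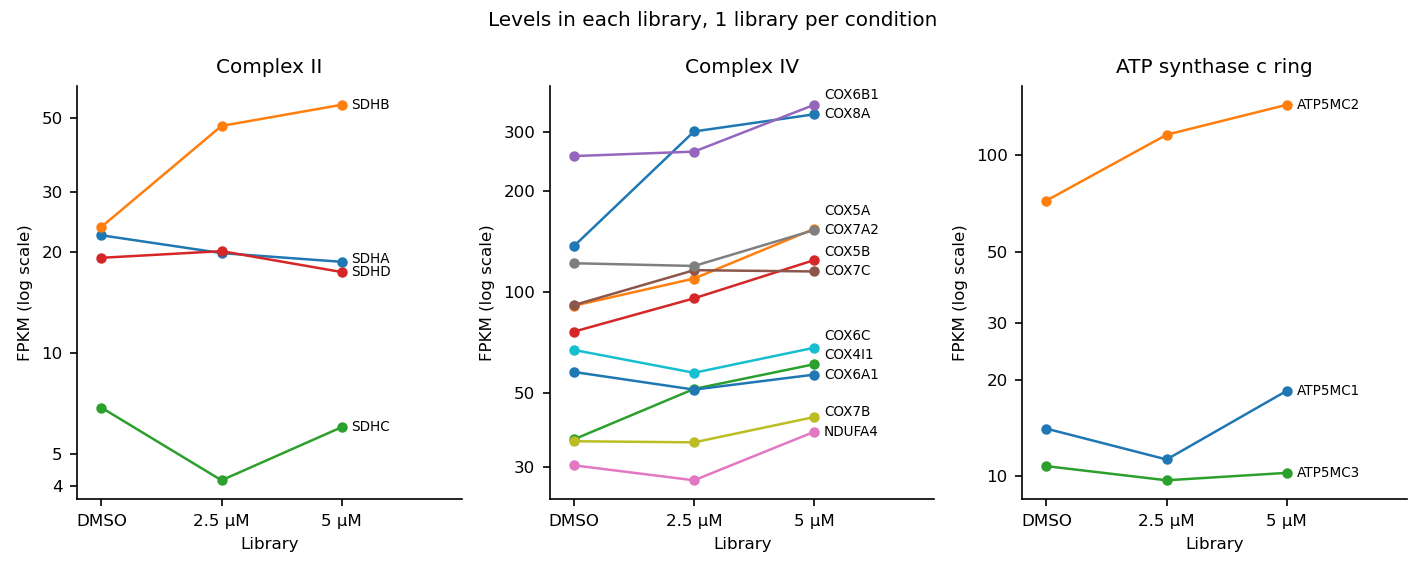
FPKM on a log scale in the DMSO, 2.5 µM and 5 µM libraries for the subunits of complex II, complex IV and the c ring of ATP synthase, 1 line per gene and 1 library per condition. SDHB and ATP5MC2 stood higher at both doses, while SDHC and ATP5MC1 had their lowest level at 2.5 µM.

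In ATP synthase, 10 of 17 subunits were higher and 2 lower at 5 µM, and 7 were higher and 2 lower at 2.5 µM. Without mitochondrial and small RNA genes 2, ATP5MC2 and ATP5F1D, were higher and 6 lower at 5 µM, and 3 and 6 at 2.5 µM. At 5 µM this was 11.8% and 35.3%, where 22.9% and 60.1% of all genes were called. At 2.5 µM it was 17.6% and 35.3%, where 24.6% and 56.2% of all genes were called. With the length trend removed 4 were higher and 7 lower at 5 µM, 23.5% and 41.2% against 34% and 45.4% of all genes. At 2.5 µM that setting gave 3 and 7, 17.6% and 41.2% against 34.9% and 43.7%. On the deposited scale the share of higher calls was 58.8% at 5 µM, against 36.5% of all genes. At 2.5 µM it was 41.2%, close to the 36.4% of all genes. The F1 head, which makes ATP, had a median of 0.39 over its 5 subunits at 5 µM and 0.33 at 2.5 µM. ATP5F1A, its alpha subunit, was at 31.8, 40.1 and 41.8 FPKM, a change of 0.39 at 5 µM, and ATP5F1B changed by 0.34. ATP5F1C, the gamma subunit of the rotating shaft, was at 75.2, 73.2 and 78.3 FPKM. ATP5F1D, the delta subunit of the same shaft, was at 34.1, 50.02 and 62.9 FPKM and was 0.88 higher at 5 µM, a larger change than those of alpha and beta, whereas gamma changed by less than its spread of 0.21 on the deposited scale. Removing the length trend turned the order, with 0.34 for ATP5F1D and 0.70 for ATP5F1A, and ATP5F1C changed by −0.45. On the scale without mitochondrial and small RNA genes, ATP5F1A changed by 0.013, ATP5F1B by −0.042 and ATP5F1C by −0.32.

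The c ring is the proton-driven rotor, and its 3 genes encode the same mature protein. ATP5MC2 was at 72.3, 116 and 144 FPKM, 0.99 higher at 5 µM and 0.68 at 2.5 µM. ATP5MC1 was at 14.1, 11.3 and 18.5 FPKM, a change of 0.39 at 5 µM that was −0.28 with the length trend removed, and ATP5MC3 at 10.8, 9.72 and 10.2. Only ATP5MC2 of the 3 stood above DMSO at both doses. It supplied 74.4% of the summed FPKM of the 3 genes in DMSO, 84.7% at 2.5 µM and 83.3% at 5 µM. The sum itself was 97.1, 137 and 172 FPKM.

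The peripheral stalk, which holds the head still, had a median of 0.11 at 5 µM and 0.10 at 2.5 µM over its 4 subunits. ATP5PD, its subunit d, was at 25.7, 20.3 and 18.7 FPKM, lower by 0.46 at 5 µM and 0.34 at 2.5 µM. Its changes were −0.84 and −0.63 without mitochondrial and small RNA genes, and −1.14 and −0.77 without the length trend. ATP5PB was 0.31 higher at 5 µM, and ATP5PF and ATP5PO lay within 0.16 of DMSO. The 5 supernumerary subunits of the membrane part had a median of 0.45 at 5 µM and 0.30 at 2.5 µM.

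Among these, ATP5ME, the subunit e found where ATP synthase dimers meet, was at 11.04, 11.9 and 6.32 FPKM. At 5 µM its level was 0.79 lower than in DMSO, with a counting interval of −1.14 to −0.47. ATP5MF, subunit f, was at 21.4, 29.2 and 32.8 FPKM, a change of 0.61. With the length trend removed, ATP5ME changed by −1.65 at 5 µM and −0.42 at 2.5 µM, and ATP5MF by −0.15 at 5 µM.

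Between the doses, 24 members were higher and 5 lower at 5 µM than at 2.5 µM, where 26.8% and 30.1% of all genes were called higher and lower. The members' 31.6% of higher calls was close to the share of all genes. On a common FPKM sum 15 were higher and 17 lower, where 16.9% and 45.2% of all genes were called, so that higher calls were 46.9% of the members' calls in place of 82.8%. With the length trend removed 12 were higher and 17 lower, where the shares of all genes were 24.3% and 29.5%, and higher calls were 41.4%. Without mitochondrial and small RNA genes 17 were higher and 7 lower, where the shares were 21% and 36.7%. On the deposited scale 2 members were higher and 0 lower by over 1, where the shares of all genes were 7.47% and 8.09%. On the deposited scale 6 of 11 subunits of complex IV and 4 of 8 of complex III were higher, and 0 lower in either. In complex I 10 of 36 were higher and 4 lower. On a common FPKM sum complexes IV, III and I had 3, 1 and 9 higher and 0, 1 and 12 lower. Without mitochondrial and small RNA genes they had 5, 1 and 9 higher and 0, 0 and 5 lower. With the length trend removed they had 2, 1 and 7 higher and 1, 0 and 12 lower. The differences between complexes were not tested. The median difference on the deposited scale was 0.25 for complex IV, 0.24 for complex III and 0.13 for complex V. It was 0.06 for complex II and 0.05 for complex I. On a common FPKM sum these medians were 0.071, 0.065, −0.050, −0.12 and −0.13, so that those of complexes V, II and I turned. The median of all genes was −0.19 on that scale, below all 5. Both comparisons with DMSO share the DMSO library. The libraries stood in the order DMSO, 2.5 µM, 5 µM from low to high for 39 members, including 17 of complex I and 10 of complex V, and in the reverse order for 5. Of the 16347 genes with an FPKM over 1 in any library, 20.5% and 24.3% stood in these orders.

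The 13 subunits encoded by the mitochondrial genome stood in the opposite direction, with a median change of −1.12 at 5 µM and −1.57 at 2.5 µM, from −3.63 for MT-ND6 to −0.24 for MT-ND3 at 5 µM. The ratio of the median mitochondrially encoded level to the median nuclear-encoded level was 214 in DMSO, 75.6 at 2.5 µM and 90.9 at 5 µM, and the libraries stood in the same order within complexes I, III, IV and V. The part of the mitochondrial share of each library in the members' changes was not tested.

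**Figure D4:**
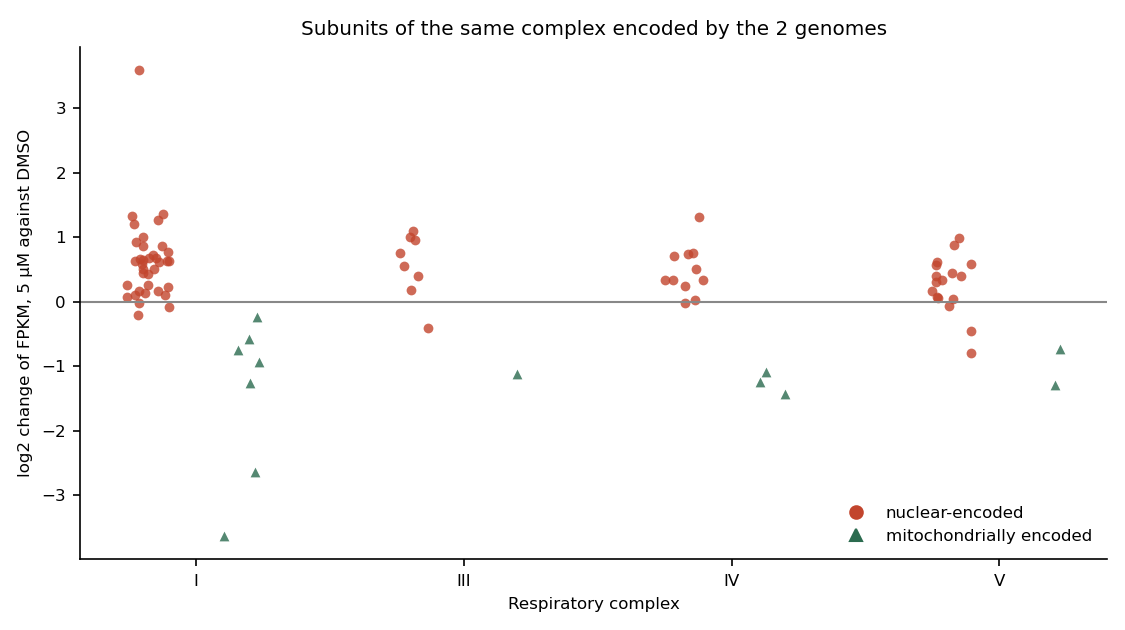
log2 change of FPKM at 5 µM against DMSO (vertical axis) of nuclear-encoded (circles) and mitochondrially encoded (triangles) subunits of complexes I, III, IV and V, 1 point per gene. All 13 triangles lay below 0, from −3.63 to −0.24. Circles above 0 were 33 of 36 in complex I and 7 of 8 in complex III. In complexes IV and V they were 10 of 11 and 14 of 17.

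Assembly factors build the complexes without being part of them, and 50 of the 53 listed had a mean of at least 1 FPKM. At 5 µM 33 were higher and 12 lower, and at 2.5 µM 30 and 14, with medians of 0.58 and 0.46. Of all genes, 36.5% were called higher and 45.1% lower at 5 µM, and 36.4% and 43.4% at 2.5 µM. Without mitochondrial and small RNA genes, a scale on which the median of all genes was −0.38 and −0.28, the medians of the assembly factors were 0.20 and 0.17. ECSIT, a complex I assembly factor, was at 21.98, 51.1 and 70.4 FPKM, and NDUFAF5, which modifies NDUFS7, at 1.71, 6.08 and 6.28. Both doses stood above DMSO for both. SDHAF1, which helps to place the iron-sulfur clusters in SDHB, was at 54.6, 110 and 128 FPKM, and SDHAF2, which attaches flavin to SDHA, at 4.49, 6.66 and 14.5. SDHAF1 and SDHAF2 were higher at both doses, as was SDHAF3, whereas SDHAF4, at 15.1, 8.90 and 9.73 FPKM, was lower at both. TMEM70, which aids assembly of the c ring, was at 20.1, 54.7 and 53.2 FPKM. Among the complex IV factors, levels moved both ways, from COX14 at 10.3, 24.8 and 41.4 FPKM to COX16 at 3.303, 1.08 and 0.201. COA8 was at 2.48, 7.76 and 9.75 FPKM. The 5 µM library held the highest level of COX14 and of COA8 and the lowest level of COX16.

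Subunits and carriers that the symbol patterns do not reach were also measured. CYC1, the cytochrome c1 of complex III, was at 127, 245 and 304 FPKM, a change of 1.25 at 5 µM, and CYCS, cytochrome c, at 26.9, 32.7 and 47.6. COX7A2L, which joins complexes III and IV, was at 12.2, 32.0 and 30.7 FPKM, and NDUFA4L2, a relative of NDUFA4, at 2.28, 5.79 and 7.17. Of these 12 genes 7 had a mean of at least 1 FPKM. Of the 7, 6 were higher at 5 µM and 5 at 2.5 µM, where 36.5% and 36.4% of all genes were called higher. Without mitochondrial and small RNA genes 6 were higher and 1 lower at 5 µM, and 3 and 1 at 2.5 µM. Of all genes, 22.9% and 24.6% were called higher on that scale. ATP5IF1, the inhibitor of ATP synthase, was at 41.5, 40.9 and 41.8 FPKM. COX6A2, the muscle isoform of COX6A1, was listed at 0 in DMSO, at 0.817 FPKM at 2.5 µM and at 4.15 at 5 µM. It reached the mean of 1 FPKM only through the 5 µM library, where it is counted as higher.

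Of 10 listed regulators of these genes, 9 had a mean of at least 1 FPKM. Of the 9, 7 were higher and 1 lower at 5 µM, and 8 and 1 at 2.5 µM. Of all genes, 36.5% and 36.4% were called higher. Without mitochondrial and small RNA genes 2 were higher and 1 lower at 5 µM and 5 and 1 at 2.5 µM, where 22.9% and 24.6% of all genes were called higher. NRF1, the factor whose letters were shown in the stretches of SDHB and NDUFB4, was at 4.82, 14.5 and 14.3 FPKM. GABPB1, a subunit of the ETS factor GABP, was at 4.94, 10.6 and 12.1 FPKM, and YY1 at 17.2, 26.3 and 26.0. All 3 stood above DMSO at both doses, and their doses differed little. PPARGC1B, a coactivator, was at 1.42, 1.14 and 1.13 FPKM. PPARGC1A, which did not reach a mean of 1 FPKM, was at 0, 0.217 and 0.375.

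For 6 members, at least 20% of the exon bases lie in exons of another gene on the same strand, so their values are uncertain. These were COX8A, NDUFA13, NDUFA7, NDUFB8, NDUFV2 and SDHA. The 4 of them in complex I had a median of 1.73 FPKM in DMSO, against 17.6 for the other 32 subunits of that complex. Without the 6 the median over all members was 0.45 at 5 µM and 0.27 at 2.5 µM. Of the 56 pseudogenes matched by the patterns, 48 were listed at 0 in all libraries, and the most abundant, UQCRHP1, reached 6.67 FPKM, so reads of UQCRH and its copies may be divided.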

How the data were processed

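RNA-seq of H660 cells was analysed, with 1 library per condition. The study's methods name both a TopHat and Cufflinks pipeline and alignment by HISAT with quantification by StringTie, and the submitters' processing notes name HISAT2, featureCounts and GRCh38/hg38; versions, annotation release and the strand setting were not given in the sources used here. The authors deposited FPKM values (fragments scaled by gene length and library size) in 1 table with a column per library, and 0 columns were left unused. The FPKM are not counts, so no count model and no test was applied.

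The members and lists were chosen with earlier results of these data known. Gene type, overlaps and length came from GENCODE release 44, in which 58207 identifiers were found. Depth was recovered from steps of FPKM times exon length: 1 fragment was worth 62.2 FPKM bp in DMSO, 49.1 at 2.5 µM and 41.6 at 5 µM, and 90.5%, 88.1% and 86.7% of values under 50 fragments came out whole within 0.1 in genes with a single transcript. Counting intervals (95%, exact binomial on these fragments) cover counting error only, since PCR copies were not marked.

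Changes are log2(FPKM + 0.1), treated minus DMSO, which understates changes of low genes. Values in all libraries are given for core subunits, the c ring, the 3 highest and 2 lowest members of each complex at 5 µM and, in other lists, up to 3 genes with the greatest change of the same sign at both doses; a few others were named after their values were seen. A few single genes are not reported here, though counts and medians include them. Alternatives changed the pseudocount, filter, scaling, length trend, membership, threshold and summary. Scripts were tested on simulated data. Python 3.11.15, pandas 2.3.3, scipy 1.17.1 and statsmodels 0.14.6 were used.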

Additional observations from a re-analysis of the deposited data

Results flagged for a closer look

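ATP5MC1, 1 of the 3 genes for the c subunit of ATP synthase, was called in opposite directions at the 2 doses. Its log2 change against DMSO was 0.39 at 5 µM and −0.32 at 2.5 µM, from levels of 14.1 FPKM in DMSO, 11.3 at 2.5 µM and 18.5 at 5 µM. Each change exceeded its spread of 0.29. With the length trend removed both were lower, at −0.28 and −0.74, and without mitochondrial and small RNA genes in the sum they were 0.012 and −0.61. The difference was not tested, since each condition was 1 library.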

How the results depend on the processing

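No paired analysis was possible because each condition was 1 library, and no library could be left out. Pseudocounts of 0.01 and 1, no filter, centring on the median, NDUFA4 in complex I and all pattern matches kept every median and count within the spread or 1.5 times, as did leaving out overlapping genes, which was chosen after seeing the data. Without mitochondrial and small RNA genes in the sum, medians for complexes I to V at 5 µM were 0.24, −0.54, 0.28, −0.047 and −0.042 (all members 0.099; 28 higher, 18 lower), and at 2.5 µM 0.18, −0.35, 0.084, −0.25 and −0.13 (all −0.00574; 25 higher, 19 lower). Of 74 values of single genes, 13 changed sign, of which 4 had been past the threshold, namely ATP5F1B at 5 µM (−0.042) and, at 2.5 µM, COX5A (−0.022), NDUFA5 (−0.00994) and UQCRB (−0.00154). With the length trend removed, medians at 5 µM were 0.048, −0.48, 0.39, 0.057 and −0.21 (all 0.032; 25 higher, 25 lower), complex I minus complexes II, III and IV was 0.53, −0.34 and −0.00940, and at 2.5 µM all members were at 0.015 and complex V at −0.13, with 20 lower. Of the 74 single values 15 changed sign, of which 5 had been past the threshold, namely ATP5MC1 (−0.28) and ATP5MF (−0.15) at 5 µM, and ATP5MF (−0.034), COX5A (−0.045) and COX5B (−0.087) at 2.5 µM; between the doses 12 were higher and 17 lower. On a common FPKM sum 3 single values changed sign, none of which had been past the threshold, 7 were lower at 5 µM, and between the doses 15 were higher and 17 lower. A threshold of 1 left 9 higher and 0 lower at 5 µM (14.7% and 24.3% of all genes), 5 and 1 at 2.5 µM (12.9% and 21.7%), and 2 and 0 between the doses (7.47% and 8.09%). A minimum mean of 5 FPKM left 3 lower between the doses. The mean of complex II at 5 µM was 0.15, opposite in sign to its median, and complex I exceeded it by 0.48. Beyond the scaling and the length trend themselves, the cause was not tested. Over the settings 535 values of single genes stayed within the spread, and of 106 others not counted above as past the threshold and turned, 15 changed sign and 91 did not. Depth limits NDUFA7, NDUFB8 and NDUFV2, with under 100 fragments in DMSO.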
